A study of Mus musculus with 6 samples.

Results

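The genes described here encode the subunits of the mitochondrial respiratory chain and of ATP synthase. Their members were taken by symbol: every probe with a single gene symbol in the platform annotation that begins with Nduf, Uqcr, Atp5 or Cox4 to Cox8, or that is Sdha, Sdhb, Sdhc, Sdhd, Cyc1 or Cycs. This rule found 274 of 21888 probes, for 83 genes. No measured value entered the choice, and the names alone also brought in 8 assembly factors of complex I (the Ndufaf genes), which are given apart below. Applied to symbols updated by Entrez ID, the rule found the same number of probes, 274.

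RNA came from the pancreas of mouse embryos at embryonic day 12.5. One group was homozygous for a null allele of Sox4, which encodes a SoxC transcription factor, and the other was made up of the wild-type littermates of those embryos, with no strain named. Each of 6 spotted arrays with 2 channels took both RNAs, that of the wild type as channel 1 and that of the knockout as channel 2. For arrays 1 and 2 the labels add that the embryonic pancreases were pooled in 2 groups and that the RNA was amplified before labelling, so the 6 arrays may be repeat hybridisations of a few pools. The p-values below then measure how far arrays scatter, perhaps for technical reasons, and say nothing of how far embryos do. A difference between tissues with fewer cells of a type and tissues with less RNA per cell cannot be told apart in such samples.

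Each value is a log2 ratio, centred on the median of its array. The ratio is read as the RNA labelled knockout over the RNA labelled wild type, so that a value above 0 is higher in the knockout. This direction is only likely: it rests on the sample titles, which name the knockout, and on the channel order, since the sources used here give neither the dyes nor the sense of the ratio. The RNAs also kept the same channel on all arrays, and channel bias at a probe and a true difference cannot be told apart. Sox4 itself did not check the direction. Its probes MMC02H11 and MMC03H11 had means of -0.03 ± 0.25 and -0.09 ± 0.13 (SD, n = 6 arrays), with limma adjusted p of 0.892 and 0.446, and the sources used here do not say whether they lie in the deleted part. Across all tested probes, arrays 1 and 2 correlated with r = 0.39, pairs among arrays 3 to 6 with r from 0.27 to 0.35, and pairs from the different sets with r from 0.06 to 0.21.

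The respiratory chain moves electrons from NADH and succinate to oxygen. Complex I takes them from NADH and complex II from succinate, complex III passes them to cytochrome c, and complex IV hands them to oxygen, while complexes I, III and IV pump protons across the inner mitochondrial membrane. ATP synthase lets the protons flow back through its membrane part and makes ATP in its F1 head. Most subunits are coded in the nucleus, a few core subunits in mitochondrial DNA, and the genes coded in the nucleus are known to share binding sites for NRF1, GABP and YY1 in their promoters.

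Of the 274 probes, 270 had values on at least 4 arrays and were tested, and 252 of these had values on all 6 arrays. Of the tested probes, 7 were past a limma adjusted p of 0.05 with Benjamini-Hochberg adjustment over all probes, which is 2.59%, against 5.49% of all 21247 tested probes. Of the 7 probes, 4 lay above 0, against 1.96% of all probes called above 0, and 3 lay under 0, against 3.53% of all probes called under 0. The share of respiratory chain probes past the threshold was thus under that of the whole array on both sides, with 1.48% above 0 and 1.11% under 0. The 7 probes belong to 6 genes: Ndufb3, Atp5j2, Atp5d and Atp5g2 above 0, and Ndufa5 and Atp5l under 0. The tested probes as a whole lay close to 0, with 122 means above 0, 148 under 0 and a median of -0.02, against a median of 0.03 for all tested probes. The balance of signs turned with the scaling and the arrays. In the set, 45.2% of the means were above 0 here and 68.1% without centring, with a median of 0.08. The share was 63.2% with arrays 1 and 2 only and 34.2% with arrays 3 to 6 only. Of all 21247 tested probes, 11401 means were above 0 here. The median of all tested probes was 0.13 without centring, 0.002 with arrays 1 and 2 only and 0.02 with arrays 3 to 6 only.

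**Figure D1:**
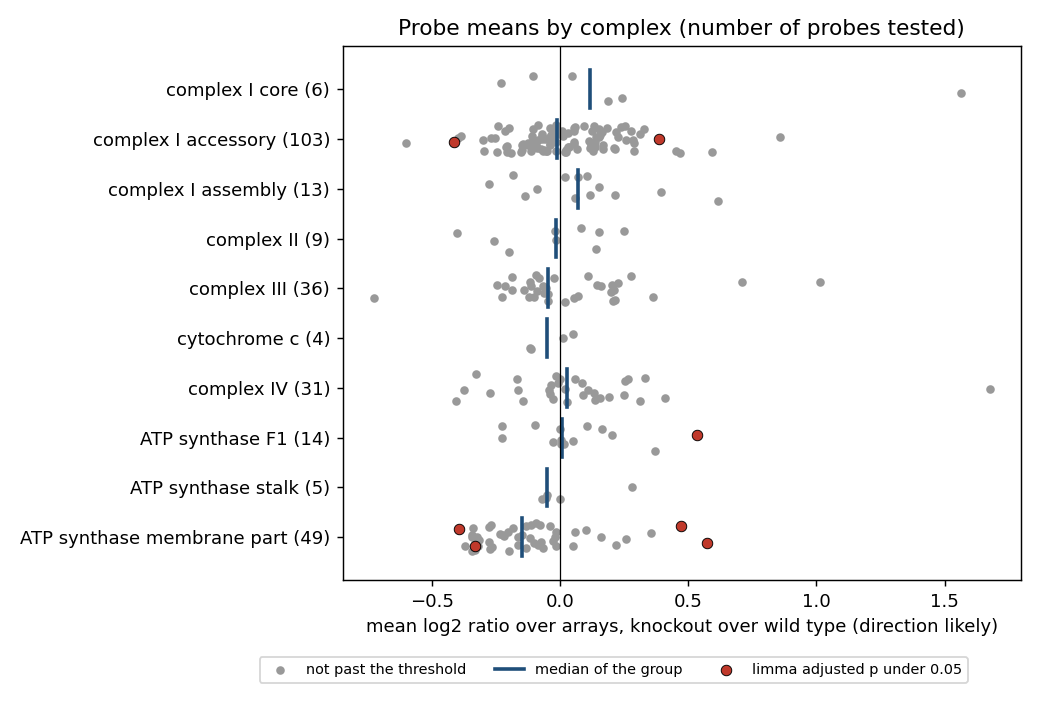
Mean log2 ratio over the arrays (x axis, knockout over wild type, likely direction) of each of the 270 tested probes, 1 point per probe, by complex; blue bars are group medians and red points are the 7 probes past a limma adjusted p of 0.05. Most points lie within 0.5 of 0 in every group, the medians run from -0.15 for the membrane part of ATP synthase to 0.11 for the core of complex I, and 5 of the 7 red points belong to ATP synthase.

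The ratios of these probes were small and tight. The median SD over arrays was 0.215, against 0.287 for all tested probes. A mean of at least 0.5 in size, a 1.41-fold difference or more, was found for 11 probes, or 4.07%, against 15.3% of all tested probes. The set also had fewer probes with mostly quotients of small whole numbers, such as very dim spots can give, at 6.67% against 12%. Spot brightness is not known, and its part in these spreads and sizes was not tested. The 95% interval of the mean lay wholly between -0.5 and 0.5 for 195 probes, or 72.2%, against 50.4% of all tested probes, so for those probes a larger difference between the RNAs lay outside the interval. Without the multiple testing adjustment, 64 probes, or 23.7%, had a p under 0.05, against 27.6% of all tested probes. Of the 252 probes with 6 values, 55 had all 6 arrays on the same side of 0, or 21.8%, against 22.3% of all such probes. These 55 were made up of 19 above 0 and 36 under 0. All 18178 such probes leaned the same way, with 1558, or 8.57%, above 0 and 2503, or 13.8%, under 0.

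Among the core subunits of complex I, which carry the flavin and the iron-sulfur clusters, none of 6 probes was past the threshold, and 2, or 33.3%, had an unadjusted p under 0.05, against 27.6% of all tested probes. The largest ratio was that of Ndufs1, the largest iron-sulfur subunit, whose single probe stood at 2.40, 1.48, 0.68 and 1.71 on arrays 1, 3, 4 and 5. It had no value on array 2, and on array 6 it held the ceiling of the deposited table, 16.61, which was left out. All 4 measured arrays were well above 0, with a mean of 1.57 ± 0.71 (SD, n = 4) and a limma adjusted p of 0.0526. With the ceiling kept as a value the mean was 4.54, with an adjusted p of 0.318. The limma adjusted p was 0.0459 without centring, 0.0375 without probes of mostly small quotients and 0.0369 with 1 probe per gene. It was 0.0543 with scale normalization and 0.0623 with array weights, so the call turned with the setting. Ndufv1, which binds NADH, and Ndufv2 had probe means from 0.04 to 0.24. Ndufs7 was at -0.11, and Ndufs3 at -0.23 with an SD of 1.34, so its ratio was not measured with any precision.

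Among the accessory subunits of complex I, which surround the core, 2 of 103 tested probes in 25 genes passed, or 1.94%, with 50 means above 0 and 53 under 0. The probe ZX-00139B03 of Ndufb3, a small subunit of the membrane arm, had log2 ratios of 0.36, 0.29, 0.29, 0.45, 0.56 and 0.35 on arrays 1 to 6. All 6 arrays were above 0 and close to each other, with a mean of 0.38 ± 0.10 (SD, n = 6), a 1.30-fold higher ratio, and a limma adjusted p of 0.0351. The other Ndufb3 probes were on the opposite side. ZX-00129N09 was under 0 on all 6 arrays, from -0.40 to -0.12, with a mean of -0.30 ± 0.11 and an adjusted p of 0.0533, and ZX-00126F19 was under 0 on all 6 arrays, with a mean of -0.21 ± 0.07 and an adjusted p of 0.0938. The remaining Ndufb3 probe, measured on 4 arrays, was at -0.27 ± 1.49. The mean over the probes of Ndufb3 was -0.08 ± 0.32, and the gene as a whole therefore gave no direction.

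Ndufa5, a subunit of the matrix arm of complex I, had 33 different probes. Its probe ZX-00139I12 had log2 ratios of -0.16, -0.51, -0.59, -0.32, -0.46 and -0.45 on arrays 1 to 6, with a mean of -0.41 ± 0.15 (SD, n = 6), a 1.33-fold lower ratio, and an adjusted p of 0.039. This probe stood apart from most others of the gene: 21 of the 33 means were under 0 and 12 above 0, with a median of -0.03 and a range from -0.60 to 0.33. The lowest mean, at ZX-00145I04, rested on 1 array, array 5 at -3.90, and a probe at -0.39, ZX-00131B03, rested on array 6 at -3.31. The mean over all Ndufa5 probes was -0.04 ± 0.13 (SD, n = 6), with an adjusted p of 0.758.

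Ndufab1, the acyl carrier protein of mitochondria, had the gene value with the smallest adjusted p among the 83 genes. Its values, the mean over its probes, were 0.37, 0.46, 0.27, 0.11, 0.38 and 0.24 on arrays 1 to 6, all above 0, with a mean of 0.31 ± 0.12 and a limma adjusted p of 0.0511 over genes. Single probes of Ndufab1 were less even, from -0.05 to 0.86 with SDs up to 0.869, and none was past the threshold. Among the other accessory genes with 5 or more probes, the probe means of Ndufb5 ran from -0.15 to 0.17 and those of Ndufc2 from -0.40 to 0.22, none past the threshold. Ndufs4, an accessory subunit of the matrix arm, had a probe at -0.30 with 6 arrays under 0 and a probe at 0.29 with 6 arrays above 0, both short of the threshold.

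The 13 tested probes of the complex I assembly factors, in 8 genes, had a median of 0.07 and none past the threshold, with 2, or 15.4%, at an unadjusted p under 0.05. Ndufaf8 was at -0.28 ± 0.16 at ZX-00126C21, with all 6 arrays under 0 and an adjusted p of 0.0849, and at 0.15 at its other probe. Ndufaf2, which joins late in the assembly, was at 0.39 ± 0.31, with all 6 arrays above 0.

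Complex II, succinate dehydrogenase, is also an enzyme of the citric acid cycle. None of its 9 tested probes was past the threshold, and 4 had an unadjusted p under 0.05, or 44.4% against the 27.6% of all tested probes. Sdhd, a membrane anchor, was under 0 at both of its probes, at -0.40 ± 0.28 and -0.26 ± 0.13, with adjusted p of 0.083 and 0.0811. Its gene values were -0.18, -0.12, -0.54, -0.42, -0.43 and -0.31 on arrays 1 to 6, all under 0, with a mean of -0.33 ± 0.16 and an adjusted p over genes of 0.0551. The catalytic subunits lay nearer 0: Sdha, the flavoprotein, had probe means of -0.20, -0.02 and 0.15, and Sdhb, the iron-sulfur subunit, of -0.02, 0.14 and 0.25. The other membrane anchor, Sdhc, was at 0.08 at its tested probe.

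Complex III had none of 36 tested probes past the threshold, with 7, or 19.4%, at an unadjusted p under 0.05, 16 means above 0 and 20 under 0. Uqcrc2, a core protein of the matrix side, had the smallest p, at -0.23 ± 0.11 for ZX-00125B22 with all 6 arrays under 0 and an adjusted p of 0.0942, while its 5 probes ran up to 0.20. The 5 probes of Uqcrc1, the other core protein, ran from -0.73 to 0.28, and the lowest of them held values of -2.29 and -1.95 on arrays 5 and 6 beside 0.42 on array 1. Uqcrh, the hinge protein, had 7 probes with means between -0.05 and 0.16. The 5 probes of Uqcrq ran from -0.06 to 0.71. The catalytic subunits gave no shared direction: Cyc1, cytochrome c1, was at 0.21 and 0.36, the second without array 5, which was at the ceiling, while Uqcrfs1, the Rieske iron-sulfur protein, was at -0.19, -0.06 and 1.01. That last value had an SD of 1.06, and all of its ratios were quotients of whole numbers up to 20, such as very dim spots can give. Such probes, with more than 50% of their ratios of this kind, made up 6.67% of the respiratory chain probes and 12% of all tested probes.

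Cytochrome c, the soluble carrier between complexes III and IV, is coded by Cycs. Its 4 probes lay from -0.12 to 0.05, none past the threshold and none at an unadjusted p under 0.05. The gene value of Cycs was -0.04 ± 0.04 (SD, n = 6), one of the tightest of the set.

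Complex IV, cytochrome c oxidase, had none of 31 tested probes in 17 genes past the threshold, with 8, or 25.8%, at an unadjusted p under 0.05 and a median of 0.03. The smallest p belonged to Cox6b1, a subunit that faces the intermembrane space: ZA-00024E14 stood at 0.31, 0.36, 0.11, 0.27, 0.56 and 0.37 on arrays 1 to 6. All 6 arrays were above 0, with a mean of 0.33 ± 0.15 and an adjusted p of 0.0562, and the other Cox6b1 probes were at 0.09, 0.15 and 0.25. Over the alternatives the limma adjusted p of ZA-00024E14 ran from 0.0304 with array weights to 0.41 with arrays 1 and 2 only. Cox8a, a small subunit of the membrane core, was under 0 at all 3 of its probes, at -0.41, -0.38 and -0.33, the first with an SD of 0.601 over 4 arrays and its array 5 at the ceiling and left out. Its gene values were -0.05, -0.44, -0.68, -0.24, -0.37 and -0.46 on arrays 1 to 6, all under 0, with a mean of -0.37 ± 0.21 and an adjusted p over genes of 0.0618.

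Several subunits of complex IV come as isoforms, known for their use in different tissues. The ratios of isoforms were set side by side without a test between them. For the subunit 6b pair, Cox6b2, known from testis, was under 0 on all 6 arrays, at -0.27 ± 0.18 with an adjusted p of 0.0977, where Cox6b1 was above 0. For subunit 8, Cox8b, known from heart and muscle, was above 0 on all 6 arrays at 0.25 ± 0.12 with an adjusted p of 0.0844, where Cox8a was under 0, and Cox8c was at -0.15 ± 0.40. For subunit 6a, Cox6a1 had a gene value of 0.22 ± 1.00 (n = 5, with a probe at the ceiling on array 3) and Cox6a2, the muscle form, 0.14 ± 1.82 (n = 5), values too scattered to place. Cox7a2 was at 0.01 ± 0.17 and the related Cox7a2l, which takes part in supercomplexes, at -0.04 ± 0.24. Cox4i1, the common form of subunit 4, had probe means of 0.03, 0.08 and 0.26, and Ndufa4, now counted as a complex IV subunit, of -0.17, -0.01 and 0.000417. Cox7b2, known from testis, had the largest mean of the whole set, 1.68 ± 1.21 on 4 arrays, with an adjusted p of 0.111. The selection rule found no probe for Cox4i2, Cox7a1, Atp5g3 or Ndufa4l2.

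ATP synthase held 5 of the 7 probes past the threshold, which is 7.35% of its 68 tested probes, near the 5.49% of all tested probes. In the F1 head, which binds ADP and phosphate, the probe ZA-00024M14 of Atp5d, the delta subunit of the central stalk, had log2 ratios of 0.62, 0.70, 0.67, 0.18, 0.54 and 0.49 on arrays 1 to 6. All 6 arrays were above 0, with a mean of 0.53 ± 0.19, a 1.45-fold higher ratio, and an adjusted p of 0.0326. Of these ratios, 66.7% were quotients of small whole numbers, and the other Atp5d probes were at -0.23, 0.01 and 0.16. Atp5b, the catalytic beta subunit, lay close to 0 at 4 of its 5 probes, between -0.03 and 0.05, and at 0.37 ± 0.93 at the remaining one. Atp5c1, the gamma subunit that turns in the head, was at -0.23 ± 0.23. In the peripheral stalk, Atp5o was at 0.28 ± 0.23 (adjusted p 0.129), Atp5pb at -0.07, -0.05 and -0.001, and Atp5h at -0.06 ± 0.59.

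In the membrane part of ATP synthase, 4 of 49 tested probes in 7 genes passed, 2 above 0 and 2 under 0, or 8.16% against 5.49% of all tested probes, and the 2 under 0 are both probes of Atp5l. The means lay mostly under 0, with 9 above and 40 under and a median of -0.15, and 29 of the 49 probes belong to Atp5l. The probe ZX-00139G20 of Atp5g2, a gene for the c subunit of the rotating ring, had log2 ratios of 0.61, 0.97, 0.35, 0.55, 0.51 and 0.46 on arrays 1 to 6. This was the largest mean of the 7 probes, at 0.57 ± 0.21 (SD, n = 6), a 1.49-fold higher ratio with an adjusted p of 0.0317 and array 2 highest. The other Atp5g2 probes were at -0.19, -0.08 and 0.06, so the gene value was 0.09 ± 0.08. Atp5g1, which codes for the same mature c subunit, had all 6 of its probe means under 0, from -0.28 to -0.02, and a gene value of -0.10 ± 0.03 with an adjusted p of 0.287. The probe ZX-00142E01 of Atp5j2, subunit f, had log2 ratios of 0.34, 0.49, 0.68, 0.11, 0.60 and 0.62 on arrays 1 to 6, all above 0. Its mean was 0.47 ± 0.21, a 1.39-fold higher ratio with an adjusted p of 0.0427, and array 4 was the lowest. The other Atp5j2 probes were at 0.22, 0.16 and -0.22, the last with an SD of 0.757.

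**Figure D2:**
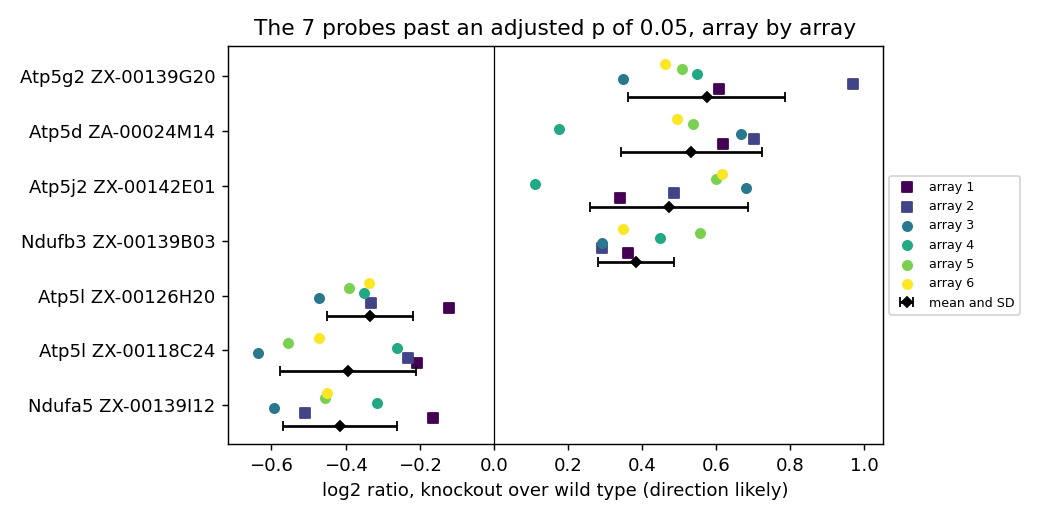
Log2 ratio (x axis, knockout over wild type, likely direction) of the 7 probes past the threshold on each of the 6 arrays, squares for arrays 1 and 2 and circles for arrays 3 to 6, with the mean and SD over arrays as a black diamond and bar. No array crosses 0 at any of the 7 probes, and the means run from -0.41 for Ndufa5 to 0.57 for Atp5g2.

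Atp5l, subunit g of the membrane part, which joins ATP synthase complexes into pairs, lay mostly under 0. Of its 29 tested probes, 26 had means under 0 and 3 above 0, with a median of -0.24 and a range from -0.39 to 0.35. The probe ZX-00118C24 had log2 ratios of -0.21, -0.23, -0.64, -0.26, -0.56 and -0.47 on arrays 1 to 6, a mean of -0.39 ± 0.18 and an adjusted p of 0.0495. The probe ZX-00126H20 had ratios of -0.12, -0.33, -0.47, -0.35, -0.39 and -0.34, a mean of -0.33 ± 0.12 and an adjusted p of 0.0464. Both lay under 0 on every array, with folds of 1.31 and 1.26 lower, and array 1 nearest to 0. Of the 29 probes, 14, or 48.3%, had an unadjusted p under 0.05, against 27.6% of all tested probes, among them the probe furthest above 0. The median over the Atp5l probes was -0.09, -0.07, -0.31, -0.23, -0.32 and -0.32 on arrays 1 to 6, and 21, 16, 23, 25, 25 and 26 of the probes were under 0 on these arrays. Array 2 was the most scattered, from -0.83 to 0.78. Averaged over its probes, Atp5l was at -0.19 ± 0.09 (SD, n = 6) with an adjusted p over genes of 0.109, short of the threshold. Many probes of a gene are read on the same 6 hybridisations and are not further replicates. They may also not all measure the same transcript.

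**Figure D3:**
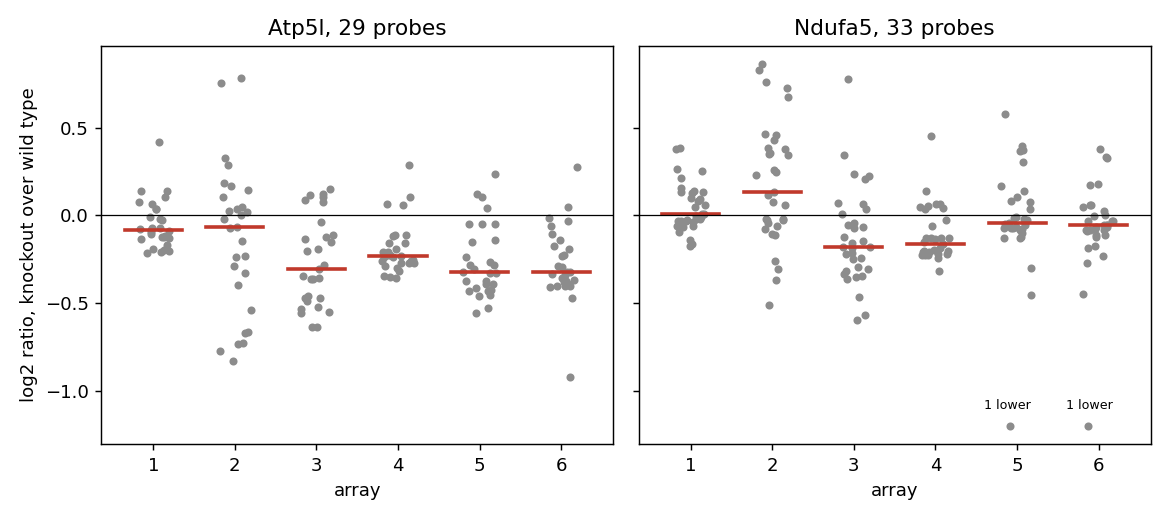
Log2 ratio (y axis, knockout over wild type, likely direction) of each tested probe of Atp5l (left, 29 probes) and Ndufa5 (right, 33 probes) on each array, with the median over probes as a red bar; 2 Ndufa5 values, -3.90 on array 5 and -3.31 on array 6, are drawn at the lower edge. The Atp5l medians are under 0 on all 6 arrays, lowest on arrays 3, 5 and 6, while the Ndufa5 medians lie at 0.01 and 0.13 on arrays 1 and 2 and under 0 on arrays 3 to 6.

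Among the smaller subunits next to Atp5l, Atp5mpl was under 0 at both probes, with means of -0.34 ± 0.22 (adjusted p 0.0804) and -0.10 ± 0.17. Atp5md was under 0 at all 3 probes, at -0.22, -0.12 and -0.04, and Atp5k, subunit e, was at 0.26 ± 0.33 with all 6 arrays above 0. That mean leaned on array 2, at 0.91, while the other arrays ran from 0.05 to 0.24. Atp5l and Ndufa5 hold 62 of the 270 tested probes and all 3 probes called under 0. Without these 2 genes, 208 probes remained, with 107 means above 0, 101 under 0 and a median of 0.004. Of the 208 probes, 4 were called above 0 and 0 under 0, or 1.92%. Of all tested probes, 5.49% were called, 1.96% above 0 and 3.53% under 0. An unadjusted p under 0.05 was found for 47 of the 208, or 22.6%, against 27.6% of all tested probes.

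Different probes of a gene often disagreed. Of the 55 genes with 2 or more tested probes, 37 had means on both sides of 0, 9 had all means above 0 and 9 all under 0. The 37 are 67.3%, against 53.4% of the 3965 such genes on the whole array. In size the probes did not differ more: the median range of probe means within a gene was 0.30, against 0.33 over all such genes. The shares were not matched for the number of probes per gene or for how near 0 the means lay. As a description, the median Pearson r across the 6 arrays was 0.21 for the 1100 pairs of probes of the same gene. It was 0.18 for the 30526 pairs of probes from different genes of the set. Among Atp5l probes the median r was 0.32 and among Ndufa5 probes 0.19. Without both genes it was 0.17 over 226 pairs, so probes of the other genes were not more alike than probes of different genes. These pairs share the arrays and their scaling.

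With 1 value per gene, the mean over its probes, 0 of 83 genes were past a limma adjusted p of 0.05, against 5.82% of the 10818 genes on the array. For a gene with several probes, this value averages over probes that often disagreed and may not all measure the same transcript. An unadjusted p under 0.05 was found for 14 genes, or 16.9%, against 27% of all genes. The values were above 0 for 47 genes and under 0 for 36, with a median of 0.02, against 0.04 for all genes. The smallest adjusted p belonged to Ndufab1, Ndufs1 (0.0518), Sdhd and Cox8a, which stood on both sides of 0.

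**Figure D4:**
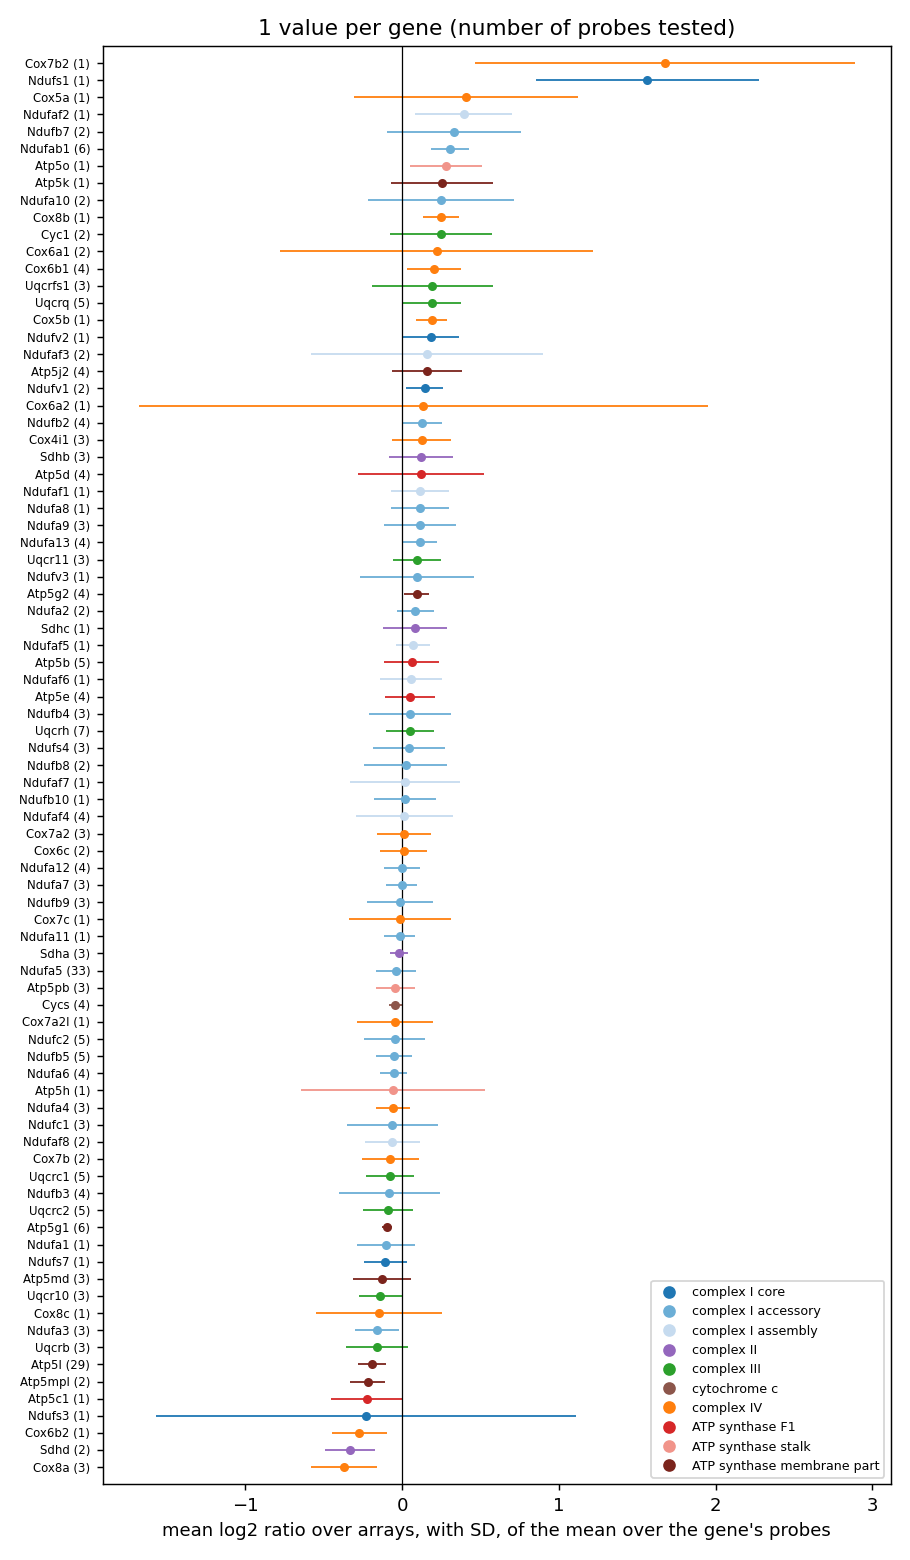
Mean log2 ratio over arrays (x axis, knockout over wild type, likely direction) with its SD for each of the 83 genes, averaged over the gene's probes, coloured by complex, with the number of tested probes in parentheses. Genes of every complex are mixed along the axis, from Cox8a at -0.37 to Cox7b2 at 1.68, and the bars of the furthest genes above 0, Cox7b2 and Ndufs1, rest on 4 arrays each.

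The ratios of the set also differed between arrays. The median over the 270 probes was 0.07, 0.14, -0.14, -0.09, -0.06 and -0.07 on arrays 1 to 6, above 0 on arrays 1 and 2 and under 0 on arrays 3 to 6. Complexes I and III and the F1 head shared this pattern, and the membrane part of ATP synthase was at -0.08 and 0.0005 on arrays 1 and 2 and between -0.24 and -0.20 on arrays 3 to 6. The difference between the array sets, arrays 1 and 2 minus arrays 3 to 6, was above 0 for 202 of 269 probes, or 75.1%, against 51.2% of all tested probes, with a median of 0.19 against 0.01. Tested probe by probe with limma, this difference was past the threshold at 0 of the 269 probes and at 0% of all 21230 probes. Without adjustment 33 of the 269, or 12.3%, had a p under 0.05, against 15.4% of all probes, and the smallest adjusted p in the set was 0.305. The sources used here do not say what else distinguishes the array sets, and its part in the ratios was not tested further.

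**Figure D5:**
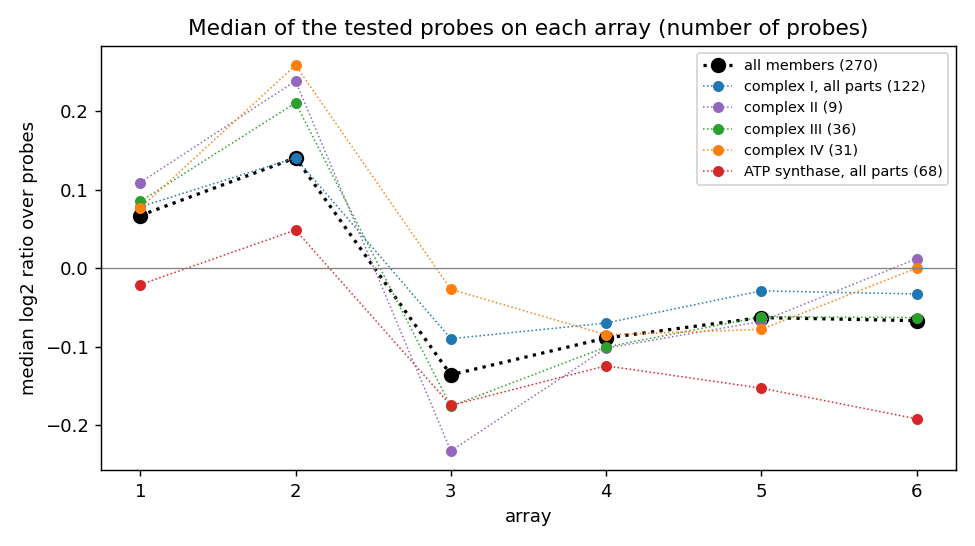
Median log2 ratio (y axis, knockout over wild type, likely direction) over the tested probes on each of the 6 arrays (x axis), for all 270 probes (black) and by complex, with the number of probes in parentheses; dotted lines join the points of a group and imply no order of the arrays. The black points lie above 0 on arrays 1 and 2 and under 0 on arrays 3 to 6, and those of ATP synthase, from -0.19 to 0.05, are the lowest on arrays 1, 2, 4, 5 and 6.

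The calls depended on which arrays were used. Without array 2, 4 of the 265 tested probes were past the threshold, and without array 1, 3, 4, 5 or 6, 0 were, while 46 to 59 of the probes then had an unadjusted p under 0.05. The means of the 7 called probes stayed between 86.3% and 115% of their size with any array left out. These probes were picked by a small p, which favours ratios of like size on all arrays, so this is no further support. Over all probes the count of 1166 fell to 1072 without array 2 and to between 10 and 45 without any other array. Without centring of the arrays, which moved the median of all tested probes to 0.13, 10 probes of the set passed, 9 above 0 and 1 under 0, against 4 and 3 with centring. This was 3.7% of the set, against 5.92% of all tested probes. The calls over all probes turned the same way, to 849 above 0 and 409 under 0, against 416 and 750 with centring.

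Other genes of the same pathway were taken from lists by function: 109 symbols, of which 69 genes were measured with 147 tested probes. Of these probes 4, or 2.72%, were past the threshold, against 5.49% of all tested probes, all of them under 0 and all in the list of assembly factors, and 37, or 25.2%, had an unadjusted p under 0.05. The assembly list had 77 probes for 29 genes, so the calls were 4 of 77, and 25 of the 77 had an unadjusted p under 0.05. Of all tested probes, 3.53% were called under 0. The list had 25 means above 0, 52 under 0 and a median of -0.09. All 21247 tested probes had 11401 means above 0, 9846 under 0 and a median of 0.03. Coa6, an assembly factor of complex IV that helps bring copper to the enzyme, had log2 ratios of -0.41, -0.49, -0.65, -0.16, -0.55 and -0.49 on arrays 1 to 6 at ZX-00126H23. Its mean there was -0.46 ± 0.17 with an adjusted p of 0.036, a second probe gave -0.40 ± 0.16 (adjusted p 0.0425), and the remaining probe gave -0.30 ± 0.21. All 3 Coa6 probes were under 0 on every array, and the gene value was -0.39 ± 0.11 with an adjusted p over genes of 0.0325.

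Sdhaf3, an assembly factor of complex II, had a mean of -0.40 ± 0.19 (adjusted p 0.0495) at ZA-00024A07, and means of -0.39 and -0.17 at its other probes. Its gene value was -0.32 ± 0.25, with an adjusted p over genes of 0.109, short of the threshold. Uqcc1, an assembly factor of complex III, had a mean of -0.34 ± 0.12 (adjusted p 0.046) at ZX-00133K19, while its other probes ran from -0.27 to 0.01, and its gene value was -0.14 ± 0.07, with an adjusted p over genes of 0.172. These called probes were under 0 on all 6 arrays. None of 12 probes of regulators of mitochondrial genes passed (median -0.02, 2 at an unadjusted p under 0.05), none of 28 probes of carriers of electrons and energy (median 0.02, 8 unadjusted), and none of 30 probes of import, chaperone and structure genes (median 0.04, 2 unadjusted). With 1 value per gene, 2 of the 69 genes passed, or 2.9%, against 5.82% of all genes. These were Coa6 and Vdac2, an outer membrane channel, at -0.30 ± 0.11 with an adjusted p of 0.0488. Among the regulators, Nrf1 was at -0.20 and 0.01 and Tfam, which packs mitochondrial DNA, at -0.13 and -0.05. The gene values of other regulators lay further out, though none was past the threshold. Gabpb1 was at 0.59 ± 0.51, Tfb2m at 0.48 ± 1.05 (n = 5), Yy1 at 0.37 ± 0.45 and Esrra at 0.10 ± 0.41. Gabpa was at -0.15 ± 0.10 and Polrmt at -0.06 ± 0.25. Of the 13 genes coded in mitochondrial DNA, 0 were matched to a probe with a value.

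Promoter windows of 300 bases, 250 before to 50 after the start site, were matched by symbol in the RefSeq table (GRCm38.p6) for 69 of the 83 genes, as 73 windows. The letters GCATGCGC of an NRF1 site, searched on both strands, were in 13 windows, or 17.8%, against 2.71% of 32851 windows of the same length. The letters AAGATGGC of YY1 were in 12.3% against 2.75%, the letters CCGGAAGT of GABP in 6.85% against 3.89%, and TATAAA in 12.3% against 13.6%. The windows of the set were richer in G and C, with a median of 59% against 52.7%, and the part of base composition in these shares was not tested. The 13 genes with the NRF1 letters had gene values from -0.19 to 0.26 with a median of 0.07, 8 above 0 and 5 under 0. The 56 matched genes without them had a median of 0.02, with 30 above 0 and 26 under 0, and the range of the genes with the letters lay within that of the genes without them, from -0.37 to 1.68. The 100-base stretches that follow lie upstream of Atp5g2 and Atp5l, which hold the same letters and have called probes on opposite sides of 0, and of Cycs, whose ratio was close to 0. Capitals mark the letters; in Atp5g2 matches on both strands overlap.
Atp5g2, chr15:102671048-102671147, minus strand: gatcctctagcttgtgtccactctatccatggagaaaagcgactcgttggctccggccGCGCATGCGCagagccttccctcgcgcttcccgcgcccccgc
Atp5l, chr9:44920893-44920992, minus strand: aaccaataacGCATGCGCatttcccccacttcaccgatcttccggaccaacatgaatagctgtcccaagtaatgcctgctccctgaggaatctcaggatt
Cycs, chr6:50566570-50566669, minus strand: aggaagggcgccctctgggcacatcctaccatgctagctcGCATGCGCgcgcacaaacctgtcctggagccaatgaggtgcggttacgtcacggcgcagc
The letters begin 42, 240 and 60 bases before the start site in Atp5g2, Atp5l and Cycs. A match of letters is a description of the sequence and does not show that a factor is bound.

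Markers of cell types were read beside these values. A ratio gives no level, so the arrays do not show how strongly either RNA held the markers of the pancreas. Of all tested probes, 5.49% were past the threshold. Probes of liver genes, 20 for 12 genes, had 9 past the threshold under 0, in 6 genes, and 0 above 0. Their median was -0.26, and the medians of the list ran from -0.58 to -0.28 over the 6 arrays. Probes of erythroid genes, 64 for 8 genes, had 1 past the threshold above 0 and a median of 0.005. Muscle genes, with 8 probes, had 0 past the threshold and a median of -0.04, and mesenchyme genes, with 9 probes, 1 under 0 and a median of -0.09. Pancreas epithelium genes, with 11 probes, had 3 under 0, all of Cpa1, and a median of 0.05. Of the 11 means, 6 were above 0, among them Nkx6-1 at 0.39 and 0.73 and Ptf1a at 0.20, and 5 under 0, among them Sox9 at -0.48. Neuron genes, with 11 probes, had 2 called on each side and a median of 0.21. The 2 above 0 were of 2 genes, Elavl4 and Tubb3, and those under 0 were both of Ncam1. The part of any of these cell types in the ratios of the respiratory chain genes was not tested.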

How the data were processed

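The deposited table gives 1 log2 ratio per probe and array for 6 arrays; the log2 base was read from its ceiling value of 16.61, which was treated as missing. The sources used here do not give scanner, background correction, dyes or the authors' normalization, and signal over background is unknown. Arrays had 20064 to 21409 measured probes. Each array was centred on its median. Probes with values on at least 4 arrays were tested two-sided against 0 by limma 3.58.1 in R 4.3.3 (an intercept fitted by lmFit, then eBayes); p-values were adjusted over all probes by Benjamini-Hochberg, with 0.05 as threshold, and the fit was tested on simulated data.

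Platform symbols were used: 18388 probes had 1, 66 had several and 3434 had none. Entrez IDs gave a current symbol for 17786, and 602 kept the platform symbol. Complex roles were assigned by hand. Named are all called probes, the smallest p of each complex without a call, genes with 5 or more probes, isoform groups, and other pathway genes past the threshold; further genes were picked with their values known. The members and lists were chosen with earlier results of these data known. Alternatives were other centring, normalization, filters, weights, array subsets and summaries per gene.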

Additional observations from a re-analysis of the deposited data

Results flagged for a closer look

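In each of 45 probes and 22 medians or gene values, the highest or lowest array was compared with the other 5 by its gap to the nearest of them over the whole range. Chance flags about 1 in 20 such groups, and 8 were found to stand apart. Array 2 was the high one at 4 probes. There, Atp5g1 at ZX-00135L15 was at 0.478 with the other arrays from -0.34 to -0.10, and Cox6b1 at ZX-00126D14 was at 1.254 with the others from -0.16 to 0.24. Likewise on array 2, Cox7a2 at ZX-00126K14 was at 0.669 with the others from -0.13 to 0.11, and Ndufa4 at ZX-00118C03 was at 0.502 with the others from -0.16 to 0.05. Array 1 was the low one at 2 probes and the high one for a median. Cox7a2 at ZX-00139F02 was at -0.490 on it with the others from -0.010 to 0.17, Cox8c at ZX-00120G07 was at -0.920 with the others from -0.13 to 0.22, and the median of the complex I assembly factors was 0.146 with the others from -0.07 to 0.005. On array 3, Cox6b2 at ZX-00123G24 was at -0.608 with the others from -0.29 to -0.13. None of these probes was past the threshold.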

How the results depend on the processing

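Of all tested probes, 1166 were past the threshold, and 1786 with scale normalization, 2402 with array weights, 630 with 1 value per gene, 13 with arrays 3 to 6 only, 0 with arrays 1 and 2 only, and 10 to 1072 with each array left out. Of the respiratory chain probes 7 passed, and 19 with scale normalization, 17 with quantile normalization, 14 with values on all 6 arrays required, 25 with array weights, 15 with the array set as a term, 12 without probes of mostly small quotients, 4 with 1 probe per gene, 0 with 1 value per gene, and 0 to 4 with each array left out. With arrays 3 to 6 only, 0 passed and 77 had an unadjusted p under 0.05, and with arrays 1 and 2 only 0 passed and 18 did. In these settings the share of the set was not above that of all probes, for example 9.26% against 11.3% with array weights. The median of the set, -0.02, moved to 0.10 with arrays 1 and 2 only and lay between -0.05 and -0.004 with each array left out. No value changed its sign while called. Of the 7 called probes, those of Atp5d, Atp5g2 and Ndufb3 stayed called without array 2, and no call of the 7 outlasted the removal of any other array. With each array left out, their means kept their sign and between 86.3% and 115% of their size, which their selection by a small p favours. Over the alternatives their limma adjusted p ran from 0.0135 to 0.55. Each ratio already pairs the RNAs of 1 array. No paired analysis was possible because, beyond this pairing, the ratios form a single group with no numbers shared between groups. The 6 arrays, and intensities that are not known, limit what small differences can be seen.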
